A study of Mus musculus with 3 samples.

Results

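Cluster 4 is a group of cells in a mouse co-aggregate data set in which fibrillar collagens and other stromal genes lead, beside genes of other tissues. Its members were chosen by the deposited cluster number, which was 4 for them. They numbered 518 of 9562 cells. In the study, endothelial cells were sorted from hearts of adult female mice that carry a ubiquitous GFP transgene and aggregated with *Mesp1*der PSCs, stromal cells of the aorta-gonad-mesonephros of E11.5 embryos that descend from *Mesp1*-expressing mesoderm. The *Mesp1* lineage was marked by *Mesp1*-driven Cre with a DsRed reporter, and the stromal cells had been sorted as PDGFRA+PDGFRB-CD31-VE-Cad-CD41-CD45- cells. Co-aggregates grew in medium with 20% fetal calf serum and with interleukin, SCF and Flt3L at 100 ng/ml each. Cells sorted as GFP+CD31+VE-Cad+PDGFRA- after 24, 48, 72 and 96 h were pooled with freshly sorted endothelium (0 h), and 3 such pools, each of several cultures, were profiled by droplet-based single-cell RNA sequencing.

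A unique molecular identifier (UMI) tags each captured messenger RNA, so a UMI count is a number of captured molecules. The barcodes carry 1 of 3 library suffixes, which are tied to no pool and no time point in the files used here. All cells therefore count as 1 sample, no difference was tested, and values by library (numbered by suffix) give a range only. Levels are UMIs per 10,000 UMIs of a group of cells, and a gene was called higher or lower when its ratio was at least 2-fold over all cells and within each of the 3 libraries.

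Stromal cells, or mesenchymal cells, lie around epithelia and vessels and lay down the fibrillar collagens, proteoglycans and elastic fibres of connective tissue. In the embryonic trunk they come from somites, lateral plate and neural crest, and PDGFRA, a receptor tyrosine kinase for platelet-derived growth factors, is widely used to mark them. Stroma around the embryonic aorta is known for signals that act on the haemogenic endothelium.

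Cluster 4 held 219, 178 and 121 cells in libraries 1, 2 and 3, which was 6.24%, 4.5% and 5.77% of the cells of those libraries and 5.42% of all cells (exact 95% interval 4.97 to 5.89). The cells had a median of 19475.5 UMIs and 4881 genes, against 21368 UMIs in the other 9044 cells. Library medians within cluster 4 were 19370, 12609.5 and 35771 UMIs, so library 3 was the deepest. Libraries 1 and 2 shared 7 barcodes, libraries 1 and 3 shared 2 and libraries 2 and 3 shared 4, and none of these was a cell of cluster 4.

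Several measurements bear on what these cells are. The gate of the last sort was PDGFRA-, whereas 212 of the 518 cells had *Pdgfra* RNA above 0.5 UMIs per 10,000, and 163 of these also had *Col1a1* above that level. RNA of *Ddx3y*, *Eif2s3y*, *Kdm5d* or *Uty*, genes of the Y chromosome, was found in 279 cells (53.9%, interval 49.5 to 58.2), with 54.3%, 50.0% and 58.7% in the libraries, although the hearts were female. *Xist*, which is transcribed from the inactive X chromosome of female cells, was found in 246 cells (47.5%). Of the cells, 229 had Y-linked RNA alone, 196 had *Xist* alone, 50 had both and 43 had neither, so most cells fell into either a Y-linked or an *Xist* class. Of the remaining cells 55.3% were positive for Y-linked RNA, a share close to that of cluster 4. The *Xist* share was lower in clusters 1 and 3, at 27.3% and 36.4%. *Dlk1*, a fetal transmembrane protein, was at 4.47 against 0.0937 in the other cells, but imprinted genes of fetal growth as a list had a median log2 ratio of 0.08 to cluster 0. The last sort was for endothelial cells by CD31 and VE-cadherin, while many of these cells carried stromal, *Dlk1* and Y-linked transcripts. Both adult endothelium, which carried GFP, and E11.5 stromal cells, which carried DsRed, went into the co-aggregates, and the last sort was also for GFP. The origin of these cells was not tested.

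The defining markers of stroma were present in every library. *Col1a1* (ENSMUSG00000001506, chr11:94936224-94953042, plus strand of GRCm38) encodes a chain of type I collagen and reached 5.52, 5.17 and 5.92 UMIs per 10,000 in libraries 1, 2 and 3 of cluster 4, against 0.0122, 0.0299 and 0.00711 in the other cells. Its log2 ratio over all cells was 8.49 (interval 8.34 to 8.64), the largest of the genes called higher at 1 UMI per 10,000 or more. *Col1a2* (chr6:4504814-4541544, plus strand), the partner chain, was at 3.78, 3.45 and 4.97 with a log2 ratio of 7.18. *Col3a1* (chr1:45311538-45349706, plus strand), type III collagen, was at 7.40, 7.66 and 6.06 with a log2 ratio of 6.99. All 3 collagens were thus far above the other cells in each library, with no overlap. *Postn* (chr3:54361109-54391037, plus strand), a matrix protein of developing valves and connective tissue, was at 1.52, 1.91 and 0.983, a log2 ratio of 6.61. *Pdgfra* itself (chr5:75152292-75198215, plus strand) was at 0.547, 0.785 and 0.476, a log2 ratio of 6.24. *Krt8* (chr15:101996698-102004482, minus strand) is a keratin of simple epithelia, not of stroma, and stood at 2.13, 1.0 and 1.03, a log2 ratio of 7.07. *Krt8* was highest in library 1, and its ratio there was 8.55 against 5.97 in library 3.

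The shares of cells positive for each marker showed that none of them was common to the whole cluster. *Col3a1* was above 0.5 UMIs per 10,000 in 71.6% of the cells, *Col1a2* in 61.6% and *Col1a1* in 57.1% (interval 52.8 to 61.4). *Pdgfra* was positive in 40.9%, *Postn* in 24.9% and *Krt8* in 19.9%. Cluster 6, rich in the platelet gene *Pf4* and deeper at a median of 32186 UMIs, is given for comparison. Its shares were 3.55% for *Col3a1*, 1.94% for *Col1a1*, 1.29% for *Pdgfra* and 0.323% for *Krt8*. Whether they come from free RNA was not tested. The order of the shares did not change when each cell was thinned to 5,000 UMIs, which left 512 cells of cluster 4 and 61.3% for *Col3a1*, 45.5% for *Col1a2*, 43.6% for *Col1a1*, 23.6% for *Pdgfra*, 18% for *Postn* and 14.8% for *Krt8*.

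**Figure D1:**
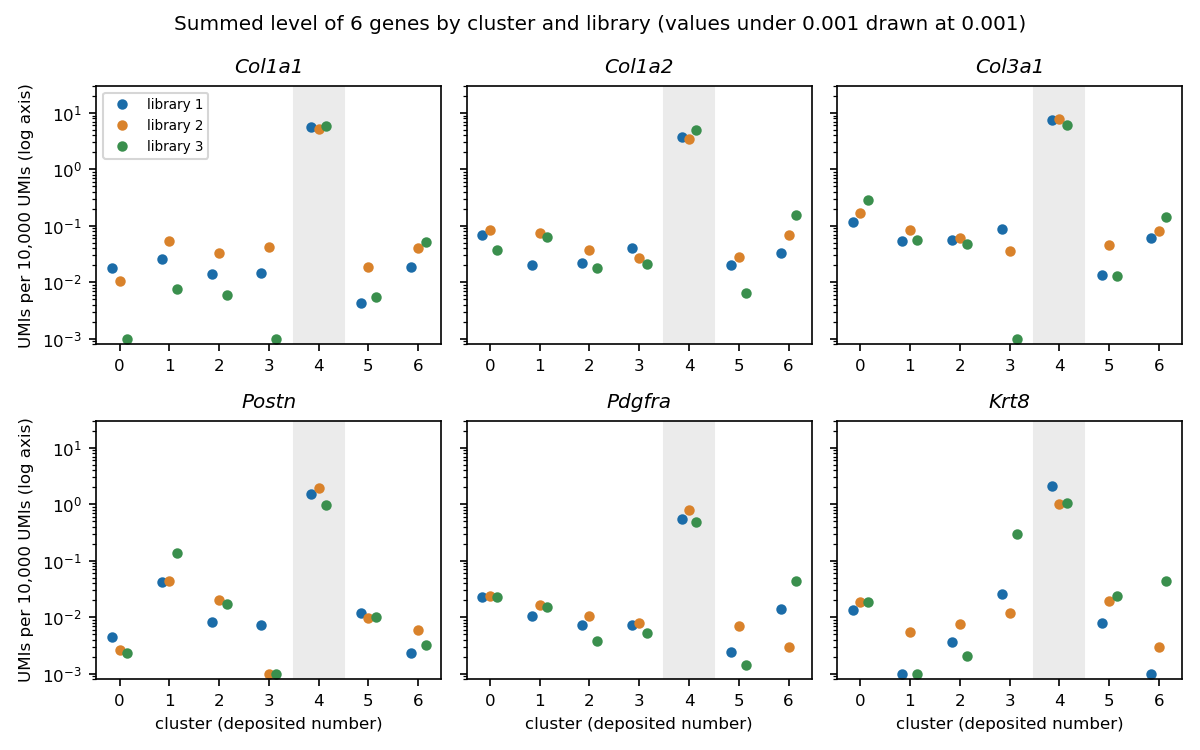
Summed level of the 6 markers in UMIs per 10,000 UMIs (log axis) by deposited cluster number, 1 point for each of the 3 libraries, with cluster 4 shaded and values under 0.001 drawn at 0.001. Every library of cluster 4 lies above every library of the other clusters for each marker, from 0.476 for *Pdgfra* in library 3 to 7.66 for *Col3a1* in library 2.

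Few cells carried much of the *Col1a1*, *Col1a2* and *Krt8* RNA. Of 6606 *Col1a1* UMIs in cluster 4, 934 came from 1 cell (14.1%), and 9 cells held 50% of them. The same fraction was held by 11 cells for *Col1a2*, 38 for *Col3a1*, 13 for *Postn*, 9 for *Krt8* and 10 for *Acta2*. *Pdgfra* was the most evenly spread of the markers, with 64 cells needed, and *Ptn* (pleiotrophin, a secreted growth factor) needed 62. A level of cluster 4 as a whole is hence, for *Col1a1*, *Col1a2*, *Krt8* and *Postn*, mainly the level of a small number of cells.

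Cluster 4 stood apart from the other cells in a large part of the transcriptome. Of 9451 genes with at least 0.1 UMI per 10,000 in either group, 1038 were called higher (11.0%) and 619 lower (6.55%), and the median log2 ratio of all genes tested was 0.10. The clusters were made from these same counts, so these differences describe the cluster and are no test of it. Among genes with at least 1 UMI per 10,000 in cluster 4, the largest ratios after that of *Col1a1* were those of *Col9a1* and *Foxd1* (log2 7.30 each), *Col1a2* (7.18), *Krt8* (7.07), *Prrx1* (7.03), *Col3a1* (6.99), *Postn* (6.61), *Nefm* (6.49), *Vcan* (6.41), *Crabp2* (6.40), *Ptn* (6.26), *Tubb3* (6.19), *Sox9* (6.16) and *Prrx2* (6.0). They belong to different tissues. *Col9a1* and *Sox9* are genes of cartilage, *Prrx1* and *Prrx2* are homeobox factors of limb and trunk mesenchyme, *Nefm* and *Tubb3* are neuronal cytoskeleton genes, and *Crabp2* binds retinoic acid. Among genes with at least 1 UMI per 10,000 in the other cells, those with the lowest ratios were mostly genes of blood: *Hba-x* and *Hbb-y*, embryonic globins (log2 -6.56 and -5.64), the macrophage genes *C1qc*, *C1qb*, *Tyrobp* and *Lyz2* (-6.52, -5.88, -6.36 and -5.29) and *Rac2* (-6.53). *Hba-x* and *Hbb-y* were also low in clusters 1, 2 and 3, at 0.0404 to 0.0683 and 0.122 to 0.226, and high in clusters 0, 5 and 6. Low levels of the macrophage genes and *Rac2* were not particular to cluster 4, since the other cells include clusters 1 and 5, where these genes were higher than in cluster 2. In cluster 2 the macrophage genes were about as low as in cluster 4, with *C1qc* at 0.0146 against 0.0110, *Tyrobp* at 0.0265 against 0.0186 and *Lyz2* at 0.0303 against 0.0270. *Hba-x* was low in both groups in library 3, at 0.00925 against 0.0249, and its ratio there was the smallest of the 3 libraries.

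Of the fibroblast and stromal list, all 12 measured members were called higher, with a median log2 ratio of 6.45. Without sub-cluster 6, described further on, 9 of 11 tested were. The list includes *Col1a1*, *Col1a2*, *Col3a1*, *Postn* and *Pdgfra*, which were among the 6 markers set beforehand, so the count is no independent support for a name. Beyond the markers above, *Dcn* (decorin, a small proteoglycan that binds collagen) was at 1.39 against 0.111, but at 0.408 without sub-cluster 6, and its ratio in library 3 was then below 2-fold (log2 0.94). *Lum* (lumican, of the same family) was at 0.682 against 0.0074. *Mfap4*, a microfibril protein, was at 0.877 against 0.0069. Of 22 genes of collagens and other matrix, 16 were higher and 1 was lower, with a median of 4.13. The lower one was *Col4a1*, a basement membrane collagen made by endothelium, at 2.39 against 6.06 (log2 -1.34). Against cluster 2, 17 of 22 genes of this list were higher and 2 lower, and against cluster 0, 13 were higher and 5 lower. For these and later counts, the shares over all genes were 12.2% higher and 5.37% lower against cluster 2. Against cluster 0 they were 9.28% and 8.09%. *Vcan* (versican, a large proteoglycan of loose embryonic matrix) was at 2.32, 4.15 and 3.84 in the libraries, and *Sparc* and *Fn1*, which endothelium also makes, passed no call at log2 ratios of 0.16 and 0.99. Of 17 enzymes and inhibitors of the matrix 9 were higher, among them *Loxl1*, which crosslinks elastin (log2 7.85), *Pcolce*, which aids the trimming of procollagen (5.09), and *Timp1*, a metalloproteinase inhibitor (2.88). Without sub-cluster 6, 6 of 15 of these were higher, and 13 of 20 of the collagen and matrix list. Against cluster 2, 9 of 17 enzymes and inhibitors were higher and 0 lower, and against cluster 0, 6 of 18 were higher and 2 lower.

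Mesenchymal transcription factors were higher in 11 of 17 genes (median 3.88). *Twist1*, a basic helix-loop-helix factor of mesoderm and neural crest, was at 1.75, 2.40 and 2.28 in the libraries against 0.0496 over the other cells, and *Prrx1* at 1.04, 1.69 and 1.16 against 0.00952. *Tcf21*, a factor of visceral and cardiac fibroblasts, had a log2 ratio of 6.37. *Zeb1* and *Zeb2*, often linked with *Twist1* in epithelial–mesenchymal transition, passed no call at -0.32 and 0.21. Trunk *Hox* genes, which mark position along the body axis, were higher in 11 of 16, and none was lower. Against cluster 2, 9 of 16 were higher and 0 lower, and against cluster 0, 8 of 16 were higher and 0 lower. The *Hoxc* members led, with log2 ratios of 6.40 for *Hoxc8*, 5.71 for *Hoxc6*, 5.03 for *Hoxc10* and 4.32 for *Hoxc9*.

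Markers of tissues other than stroma were higher as well. Of 13 epithelial genes measured, 9 reached the level to be tested, and all 9 were called higher (median log2 6.08). The list, which includes the marker *Krt8*, summed to 5.17 in cluster 4 and to 0.235 in the other cells. Most of its tested genes thus passed the minimum level through cluster 4, which favours a higher call. *Krt18*, the keratin partner of *Krt8*, was at 1.45 against 0.0670. Of the mesothelial and epicardial genes, 5 of 6 were higher, and *Wt1*, a factor of mesothelium, kidney and gonad, was at 0.433 against 0.0172. Of the smooth muscle list 7 of 9 were higher, with *Acta2* (smooth muscle actin) at 5.49, 7.76 and 8.19 in the libraries against 0.152, and 5 of 7 pericyte genes were higher, with *Rgs5* at 1.67 against 0.0409. Tested cartilage and bone genes were higher in 6 of 6, neural crest and glia genes in 6 of 6 and neuronal genes in 5 of 6. Renal and gonadal genes were higher in 3 of 3, cardiac muscle genes in 4 of 5 and skeletal muscle genes in 3 of 4. In that order, 13, 8, 6, 10, 11 and 9 genes were measured. All neural crest and glia genes together summed to 0.0349 in the other cells, and all renal and gonadal genes to 0.0445. Their tested members hence passed the minimum level through cluster 4, which fixed a ratio above 2-fold over all cells. The 2 tested fat genes, *Fabp4* and *Lpl*, passed no call. Of these lists, fat alone had no gene called higher against all other cells. Against cluster 2, 1 of 2 tested fat genes was higher, and against cluster 0, 1 of 2.

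Endothelial and blood markers went the other way. All 14 endothelial genes were lower, with a median log2 ratio of -2.67 and a summed level of 5.77 against 38.0. *Cdh5*, which encodes the VE-cadherin used in the sort, was at 0.608, 0.571 and 0.506 in the libraries against 3.53, and *Pecam1*, which encodes CD31, at 0.606, 0.571 and 0.451 against 2.82. Neither was at 0, and in the endothelial-like sub-cluster 4, described further on, *Cdh5* was at 2.92. All 12 blood genes were lower, with a summed level of 0.809 against 13.8, and *Ptprc* (CD45) was at 0.0076 against 0.287. The other cells include clusters 1, 5 and 6, in which blood genes were high. Against cluster 2 alone, 2 blood genes could be tested, *Pf4* and *Runx1*. Of these 1 was higher and 0 lower, and their median log2 ratio was 2.34. *Pf4* was at 0.420 against 0.158 in cluster 2. Against cluster 0 alone 1 of 3 was lower. *Runx1*, the factor needed for blood to arise from haemogenic endothelium, was at 0.182, 0.179 and 0.178 in the libraries against 0.440 in all other cells. Its lower call holds for that comparison only, and against cluster 2 it was not called lower. Of 7 germ and pluripotency genes 6 were lower, and *Dppa5a* was at 0.0127 against 0.766. Against cluster 2 or cluster 0 alone, 1 gene of this list could be tested and 0 were lower.

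**Figure D2:**
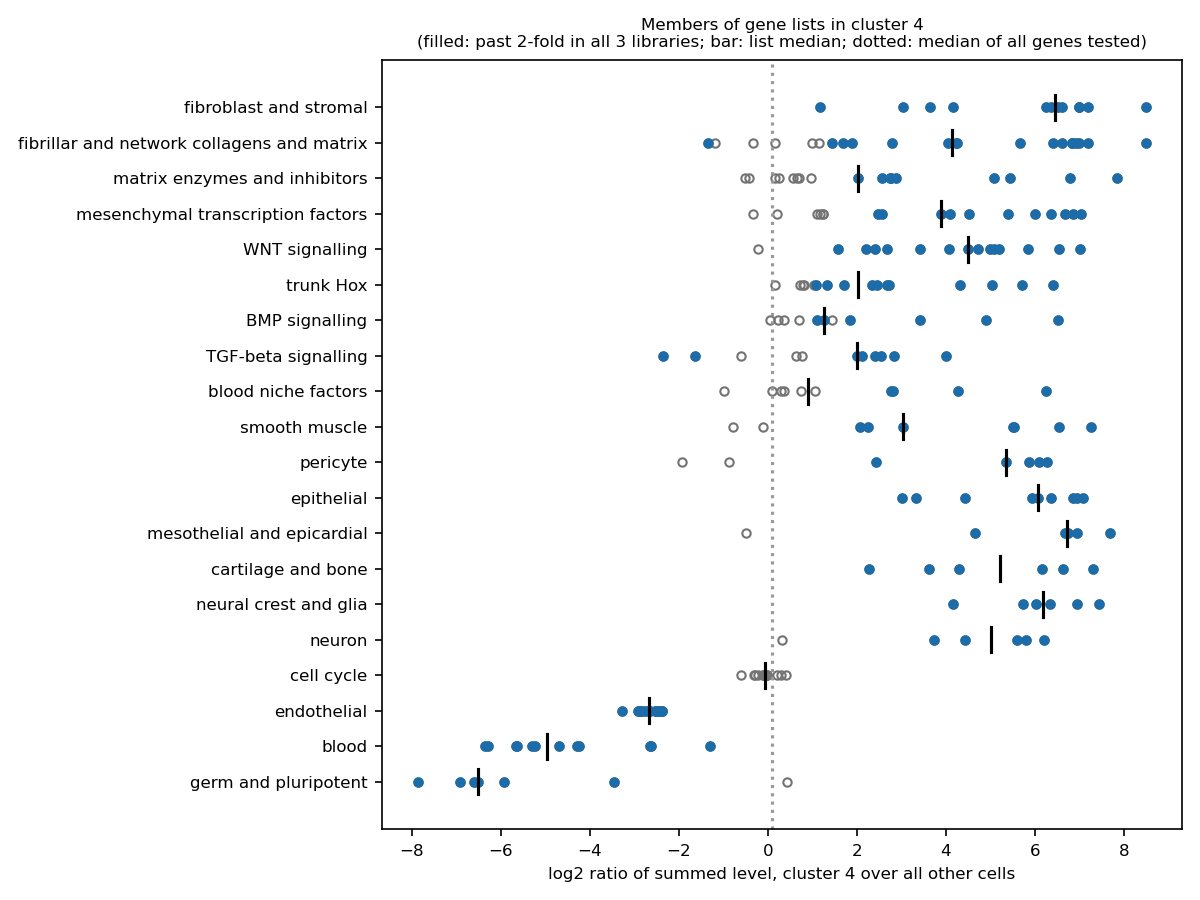
Log2 ratio of the summed level of cluster 4 to all other cells for each tested member of a gene list, filled where past 2-fold in all 3 libraries and open otherwise, with a bar at the list's median and a dotted line at the median of all genes tested (0.10). The stromal list lies to the right with a median of 6.45, the endothelial and blood lists lie to the left with medians of -2.67 and -4.97, and the cell cycle list lies at the dotted line.

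Signalling genes are given by role. Among the PDGF genes, the receptors *Pdgfra* and *Pdgfrb* were higher, and *Pdgfrb* was at 0.465, 0.489 and 0.386 against 0.00757 (log2 5.87). The stromal cells put into the co-aggregates had been sorted as PDGFRB-, and whether cluster 4 holds any of them was not tested. Of the ligands, *Pdgfc* was higher (6.29), *Pdgfb*, which endothelium makes, was lower (-2.11), and *Pdgfa* passed no call at 0.746 against 0.400. Against cluster 2, 14 of 15 WNT genes were higher, and against cluster 0, 10 of 16 were higher and 2 lower. Against all other cells the WNT list was higher in 14 of 15 genes with a median of 4.5. Its ligands *Wnt4*, *Wnt5a* and *Wnt6* were at 0.565, 0.419 and 0.469 against 0.0166, 0.0131 and 0.00503, the antagonist *Sfrp1* was at 1.68 against 0.0640, and *Axin2*, a target of the canonical pathway, had a log2 ratio of 2.20.

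BMP genes were higher in 6 of 11 and none was lower. They were the ligands *Bmp4* (log2 1.11) and *Bmp7* (4.90), the secreted antagonist *Grem1* (6.51), the receptor *Bmpr1a* (3.42), the inhibitor *Smad6* (1.26) and the target *Id2* (1.85). Against cluster 2, 6 of 11 BMP genes were higher and 0 lower, and against cluster 0, 5 of 11 were higher and 1 lower. TGF-beta genes were higher in 6 of 11 and lower in 2. Against cluster 2, 7 of 11 were higher and 2 lower, and against cluster 0, 5 of 11 were higher and 3 lower. *Tgfb2* was at 1.31 against 0.246, while *Tgfb1* and the receptor *Tgfbr2* were lower at -2.36 and -1.63. In the NOTCH list *Notch2*, *Notch3* and *Heyl*, which mural cells express, were higher at 1.96, 2.44 and 6.44, and the arterial ligand *Dll4* and the endothelial receptor *Notch4* were lower at -1.96 and -1.70. That made 3 of 9 higher and 2 lower, while 3 of 10 were higher and 4 lower against cluster 2, and 2 of 11 higher and 7 lower against cluster 0.

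Among 10 tested factors with a known part in the blood niche, 4 were higher and none was lower against all other cells. Against cluster 2, 7 of 10 were higher and 1 lower, and against cluster 0, 4 of 10 were higher and 1 lower. *Cxcl12*, the chemokine that holds haematopoietic cells in their niche, was at 3.24, 2.64 and 3.58 in the libraries against 0.149, 0.172 and 0.183 (log2 4.26). *Ptn* was at 5.30, 5.96 and 5.16 against 0.0708, and *Vcam1* and *Angptl2* were higher at 2.78 and 2.82. *Kitl*, the ligand of KIT, was not called, at 0.527 against 1.04. *Igf2* was at 10.7 against 8.73 and passed no call, and its level in cluster 0 was 37.0.

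Imprinted genes of fetal growth were higher in 7 of 12 against all other cells, but in 4 of 12 with 1 lower against cluster 2, and in 3 of 12 with 3 lower against cluster 0 (median log2 0.08). *Meg3* was at 9.89 against 1.65, *Peg3* at 8.99 against 1.5 and *Cdkn1c*, a growth inhibitor, at 11.2 against 2.83, with the libraries of cluster 4 at 11.4, 8.86 and 12.5. Of 7 fetal RNA-binding and chromatin genes only *Hmga2* was called, at 6.65 against 2.82, a share (14.3%) near the 11.0% of all genes, and 0 were called against cluster 2 or cluster 0. None of 14 cell cycle genes was called, and their median log2 ratio of -0.06 lay near the 0.10 of all genes. *Mki67*, a gene of dividing cells, was at 2.46 against 2.51. Of 12 hypoxia and glycolysis genes *Vegfa* was higher (1.96) and *Adm* lower (-1.47), and of 12 stress genes *Mt2* was higher (1.59) and *Hmox1* and *Hspa1a* lower (-1.66 and -2.04). In both lists the share of higher genes, 8.33%, was below that of all genes. Against cluster 2, 6 of 12 stress genes were higher, and against cluster 0, 4 of 11, with 0 lower in either. Of 8 inflammation genes 0 were higher and 3 lower against all other cells, whereas 3 of 4 were higher against cluster 2 and 1 of 5 against cluster 0, with 0 lower in either.

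Cluster 4 was split by Leiden clustering of its own cells into 14 sub-clusters, numbered by size from 102 to 13 cells. A name ending in -like was given to those with at least 3 markers of a cell type list among their top genes, and the others are called by number. Each sub-cluster held cells of all 3 libraries. The sub-clusters come from the same counts as their leading genes, which describe them and nothing more.

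**Figure D3:**
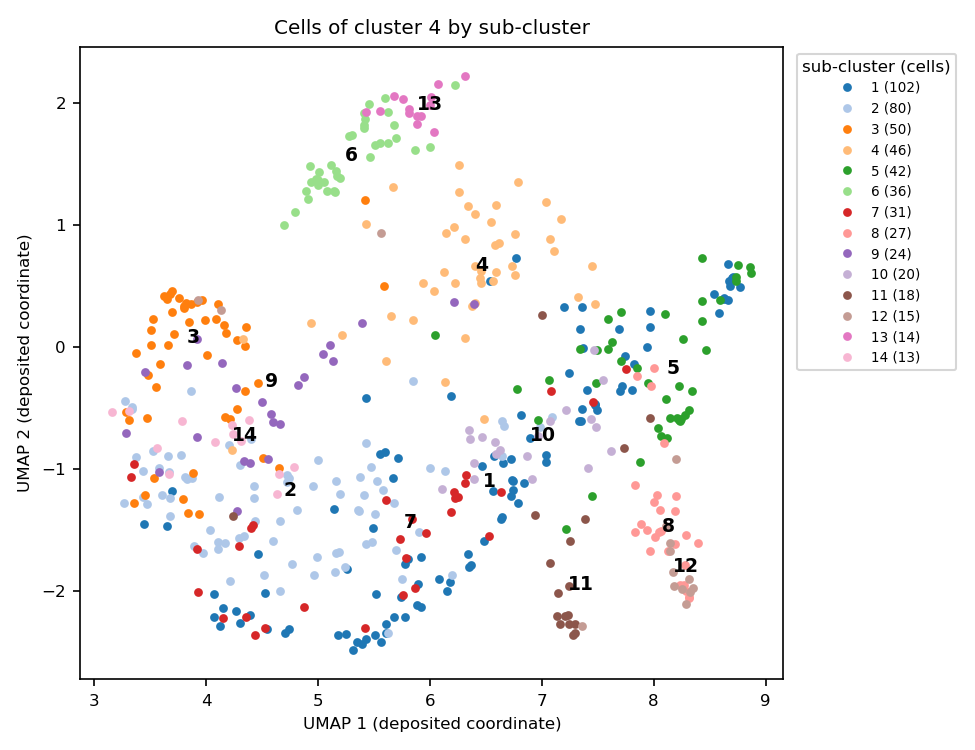
Cells of cluster 4 at the authors' 2 UMAP coordinates (no unit), coloured by sub-cluster. Most cells of sub-clusters 6 and 13 lie at the highest second coordinates, and most of the epithelial-like sub-clusters 8 and 12 lie together at high first coordinates.

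Sub-clusters 1, 2, 3 and 7 held 26.8%, 21%, 16.3% and 10.3% of the *Pdgfra* UMIs of cluster 4 and stayed without a name. Sub-cluster 1 (102 cells) was led by genes of somites and skeletal muscle, among them *Ttn*, *Myog*, *Tcf15* and *Meox1*, of which *Meox1* was as high in sub-cluster 3, at 2.24 against 2.13, and *Myog* in sub-cluster 11, at 1.3 against 1.19. *Meox1*, a factor of the somites, was at 2.26, 1.11 and 2.79 in the libraries, and *Twist1* at 3.86, 4.40 and 5.10. *Myog*, a factor of muscle differentiation, was found in 8.82% of these cells and *Ttn* in 12.7%, so both came from few of them. Sub-cluster 2 (80 cells) had *Aldh1a2*, an enzyme that makes retinoic acid, at 2.27 against 0.572 in the rest of cluster 4, *Sfrp1* at 3.67 and *Ptn* at 12.4, 12.7 and 8.21 in the libraries. *Aldh1a2* was higher in sub-cluster 10, at 3.15, and *Sfrp1* in sub-cluster 14, at 4.95. *Pdgfra* was at 1.17 in sub-cluster 2, its highest level among the sub-clusters.

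Sub-cluster 3 (50 cells) combined *Tbx20* and *Gata4*, factors of heart mesoderm, with *Rgs5*, a gene of pericytes. *Rgs5* was at 10.4, 11.2 and 10.4 in the libraries and 10.6 in all, against 0.645 in the rest of cluster 4. *Col3a1* was found in 100.0% of these cells at 14.7 and *Postn* in 64.0% at 3.71. *Hoxc8* had no UMI in these cells. A count of 0 still allows an upper level of 0.0304 (exact 95% interval), and *Hoxc8* was at 1.38 in sub-cluster 1. Sub-cluster 7 (31 cells) was led by *Barx1* and *Foxf1*, factors of gut mesenchyme, and by genes of mitosis. *Barx1* was found in 19.4% of its cells, and *Foxf1*, at 1.57, was higher in sub-cluster 14, at 1.78. *Mki67* was found in 100.0% of the cells of sub-cluster 7, and 5 cell cycle genes were among its top 50.

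Sub-cluster 6 (36 cells, 6.95% of cluster 4) had the highest levels of *Col1a1*, *Col1a2* and *Col3a1* among the sub-clusters over all libraries. *Col1a1* was at 26.3, 36.0 and 61.4 in the libraries and at 40.2 in all, against at most 18 over the cells of any other sub-cluster, and *Col3a1* was at 39.3, 40.7 and 20.9. In library 1, sub-cluster 12 was higher for *Col1a1*, at 30.3, and for *Col1a2*, at 18.2 against 16.2. These cells held 47.0% of the *Col1a1* UMIs of cluster 4, 47.0% of those of *Col1a2* and 31.1% of those of *Col3a1*. Its leading genes were *Mgp* (matrix Gla protein, an inhibitor of calcification) at 103 against 0.229 in the rest of cluster 4, *Spp1* (osteopontin) at 41.9 against 0.0515, and the inflammation genes *Il6*, *C3* and *Saa3*. These did not mark all of its cells. *Mgp* was found in 91.7% of them, *Il6* in 50.0%, *Spp1* in 36.1%, *Saa3* in 22.2% and *C3* in 13.9%. Of the *Spp1* UMIs of cluster 4, 36.9% came from 1 cell of sub-cluster 6, and 50% from 2 cells. For *Mgp* 1 cell of sub-cluster 6 held 19.1% and 5 cells held 50%, and for *Dcn* 1 such cell held 23.5% and 5 cells held 50%. *Timp1* was at 21.1, *Dcn* at 15.5 and the chemokine *Cxcl12* at 13.2, each the highest among the sub-clusters. *Ccl2* was at 7.78, 2.29 and 1.92 in the libraries, and the inflammation list summed to 18.9 against 0.30 in the rest.

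The imprinted list summed to 27.6 in sub-cluster 6, against 78.4 in the rest of cluster 4. *Dlk1* was at 0.0129 and was found in 2.78% of its cells, while *Igf2* was at 3.26, 1.59 and 1.51 in the libraries, below the 7.94 of sub-cluster 1 and the 27.3 of sub-cluster 3. *H19* was not uniformly low, at 7.18, 1.11 and 10.9. The sub-cluster also had the lowest median depth of the 14, 12879.5 UMIs, and Y-linked RNA in 22 of 36 cells. Without its cells, *Col1a1* of cluster 4 fell from 5.58 to 3.16 and *Col1a2* from 4.13 to 2.34, both still far above the other clusters, at log2 ratios of 7.67 and 6.36. *Mgp* fell from 6.96 to 0.229 and *Spp1* from 2.78 to 0.0515, which put *Spp1* below the other clusters at -1.46.

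Sub-cluster 9 was smooth muscle-like (24 cells), and 9 of the 12 smooth muscle genes were among its top 50. *Acta2* was at 79.2, 93.3 and 70.7 in the libraries and 77.6 in all, against 2.81 in the rest of cluster 4. *Tagln* (transgelin, an actin-binding protein) was at 64.0, 43.1 and 53.6, and *Myl9* (a myosin light chain) at 15.4, 16.2 and 16.4. Both genes were found in 100.0% of its cells, as was *Acta2*, and 62.3% of the *Acta2* UMIs of cluster 4 were in these 24 cells. *Actc1* (cardiac actin) was at 31.3 and *Acta1* (skeletal actin) at 2.86, the latter in 29.2% of cells, while *Myh11*, the smooth muscle myosin, was at 1.15. *Col1a1* was at 15.3, 14.2 and 9.98, and *Pdgfrb* at 1.14 was above *Pdgfra* at 0.284. This sub-cluster was recovered with the same 24 cells, less those left out, under every alternative setting of the clustering.

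Genes of the contractile apparatus are known targets of serum response factor, which binds the CArG box. Of the 16 genes in the smooth muscle list and the leading genes of sub-cluster 9, 11 had an entry in the RefSeq table of promoters (GRCm38.p6), and 4 of these held a CArG box in the 250 bases before the start, against 482 of 32851 windows (1.47%) in the table as a whole. The motif reads the same on both strands. These 4 stretches are shown because they are the matches among these contractile genes, with the CArG box in capitals and each written 5′ to 3′ on the strand of its gene:

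Cnn2, chr10:79988504-79988593, plus strand, box 56 bases before the start: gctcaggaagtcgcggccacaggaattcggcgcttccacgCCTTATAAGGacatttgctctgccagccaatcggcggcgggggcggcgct

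Myl9, chr2:156775263-156775352, plus strand, box 161 bases before the start: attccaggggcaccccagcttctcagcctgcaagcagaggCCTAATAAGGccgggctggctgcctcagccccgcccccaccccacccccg

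Acta1, chr8:123894799-123894888, minus strand, box 73 bases before the start: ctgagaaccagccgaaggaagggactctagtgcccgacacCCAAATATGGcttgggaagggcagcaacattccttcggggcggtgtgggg

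Actc1, chr2:114052876-114052962, minus strand, box 47 bases before the start: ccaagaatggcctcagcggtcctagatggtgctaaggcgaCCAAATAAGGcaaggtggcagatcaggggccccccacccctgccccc

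The matches describe the sequence and show no binding, and a window without a match shows only that the letters are not in it. In sub-cluster 9 the level of *Cnn2* was 8.14 and was found in 100.0% of cells, although over all of cluster 4 *Cnn2* passed no call (log2 -0.11). *Acta1* was uneven between the libraries, at 3.02, 0.529 and 3.66.

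Epithelial-like cells formed sub-clusters 8 (27 cells) and 12 (15 cells). In sub-cluster 8 *Epcam*, an adhesion protein of epithelia, was found in 100.0% of cells at 11.3, 4.88 and 7.89 in the libraries, with *Krt5*, *Cldn7* and *Cxcl14* among its leading genes. *Krt8* was at 4.15 and *Col1a1* at 0.0633. Sub-cluster 12 was led by *Tac2* and *Gabrp* and had *Krt8* at 27.6, 22.0 and 20.1 in the libraries, against 0.529 in the rest of cluster 4. Its 15 cells held 65.0% of the *Krt8* UMIs and 48.8% of the *Krt18* UMIs of cluster 4, and without them *Krt8* of cluster 4 was at 0.529, a log2 ratio of 5.61. *Wnt6* was at 4.63 in sub-cluster 12 and 4.56 in sub-cluster 8. *Col1a1* in sub-cluster 12 was at 30.3 in library 1, where 10 of its cells lay, and at 0.358 and 0.232 in libraries 2 and 3.

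*Krt8* and *Col1a1* were therefore compared cell by cell at 5,000 UMIs. Of 512 cells, 32 had both (6.25%, interval 4.31 to 8.71), 44 had *Krt8* alone, 191 had *Col1a1* alone and 245 had neither. The share with both was 5.61%, 6.74% and 6.67% in the libraries. In sub-clusters 3, 2, 4 and 1, 9, 7, 5 and 4 cells had both, against 2, 2, 1 and 3 with *Krt8* alone. *Col1a1* alone was found there in 28, 41, 21 and 24 cells. In sub-cluster 8, 16 cells had *Krt8* alone, 1 had both and 0 had *Col1a1* alone. In sub-cluster 12, 13 cells had *Krt8* alone and 2 had both. In the collagen-rich sub-cluster 6, 30 cells had *Col1a1* alone and 1 had both, and in sub-cluster 9, 22 had *Col1a1* alone.

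**Figure D4:**
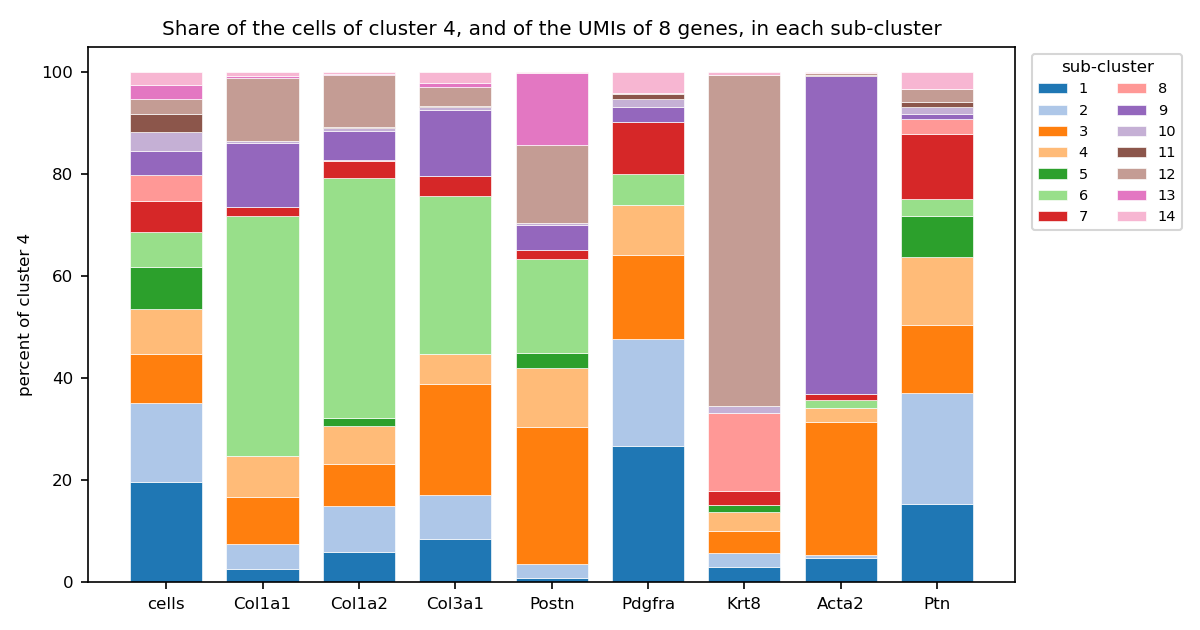
Percent of the cells of cluster 4 and of the UMIs of 8 genes that lay in each sub-cluster, as stacked bars. Sub-cluster 6 makes up 6.95% of the cells but 47.0% of the *Col1a1* UMIs, sub-cluster 12 holds 65.0% of those of *Krt8* and sub-cluster 9 holds 62.3% of those of *Acta2*, while *Pdgfra* and *Ptn* are spread over many sub-clusters.

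Neural genes lay in sub-clusters 5, 11 and 13. Sub-cluster 5 (42 cells) was led by *Hes5*, *Sox2*, *Sox10*, *Fabp7* and *Pax3*, genes of neural progenitors and neural crest. Both *Col1a1* and *Pdgfra* had no UMI in its cells, each with an upper limit of 0.0360. Other stromal markers were present there, with 79 UMIs of *Col1a2*, 50 of *Postn* and 5 of *Col3a1*. Sub-cluster 11 was neuron-like (18 cells), with all 6 neuronal genes among its top 50. Its *Tubb3* (neuronal tubulin) was at 43.5, 31.4 and 34.0 in the libraries, *Elavl3*, an RNA-binding protein of young neurons, was found in 100.0% of cells, and *Mki67* in 5.56%. *Dbh* and *Th*, genes of sympathetic neurons, were among its leading genes, but each was found in 1 of its 18 cells (5.56%).

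Sub-cluster 13 was neural crest and glia-like (14 cells). *Ngfr*, a neurotrophin receptor, was at 6.0, 7.57 and 3.45 in the libraries, and *Foxd3*, a factor of the neural crest, at 2.79, 2.08 and 2.0. *Postn*, one of the markers of the whole cluster, was at 9.35 and found in 100.0% of these cells, more than in any other sub-cluster. *Dlk1* and *Igf2bp1* had no UMI (upper limit 0.145), and *Igf2* was at 0.314, the lowest of the 14 sub-clusters. Y-linked RNA was in 11 of its cells and *Xist* in 1.

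Sub-cluster 10 (20 cells) had *Wt1* and *Lhx9* in 100.0% of its cells, at 5.12 and 5.56. Of the mesothelial and epicardial list 4 genes were among its top 50, but it was left without that name because *Amhr2* and *Lhx9*, genes of the gonadal ridge, were among its leading genes. *Amhr2*, a receptor of the gonadal ridge and its coelomic epithelium, was at 2.25 against 0.0192 in the rest of cluster 4, and *Gata4* was at 1.13, 1.54 and 1.35 in the libraries. Sub-cluster 14 was cartilage-like (13 cells, 8 of them from library 3), with *Col9a1* at 11.9, 13.0 and 15.8 and *Col2a1*, the main collagen of cartilage, at 8.44, 7.21 and 8.76 in the libraries. *Sox9*, the factor that drives cartilage formation, was at 6.76. *Acan*, the large proteoglycan of mature cartilage, was at 0.0386 and found in 7.69% of cells.

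Sub-cluster 4 was endothelial-like (46 cells), with 10 of the 14 endothelial genes among its top 50. *Cdh5* was at 3.33, 2.54 and 2.76 in the libraries and *Emcn* (endomucin, a sialomucin of veins and capillaries) at 2.95, 3.83 and 1.98. *Col1a1* was found in 91.3% of the same cells, at 1.67, 8.77 and 2.29, and *Pdgfra* in 63.0%. *Pf4*, a gene of platelets, also led it, as did the globin gene *Hba-a1*, which was found in 1 of the 46 cells. *Pf4* was at 6.37 in library 2 but at 0.135 and 0.0682 in the others. Both Y-linked RNA and *Xist* were found in 25 of the 46 cells (54.3%, interval 39.0 to 69.1), against 25 of the 472 other cells of cluster 4 (5.30%). The median doublet score of Scrublet was 0.142 in these cells and 0.0516 in cluster 4 as a whole, and the median depth was 26028.5 UMIs. Whether some of these barcodes held 2 cells was not tested. Without sub-cluster 4, 1103 genes were called higher and 675 lower.

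**Figure D5:**
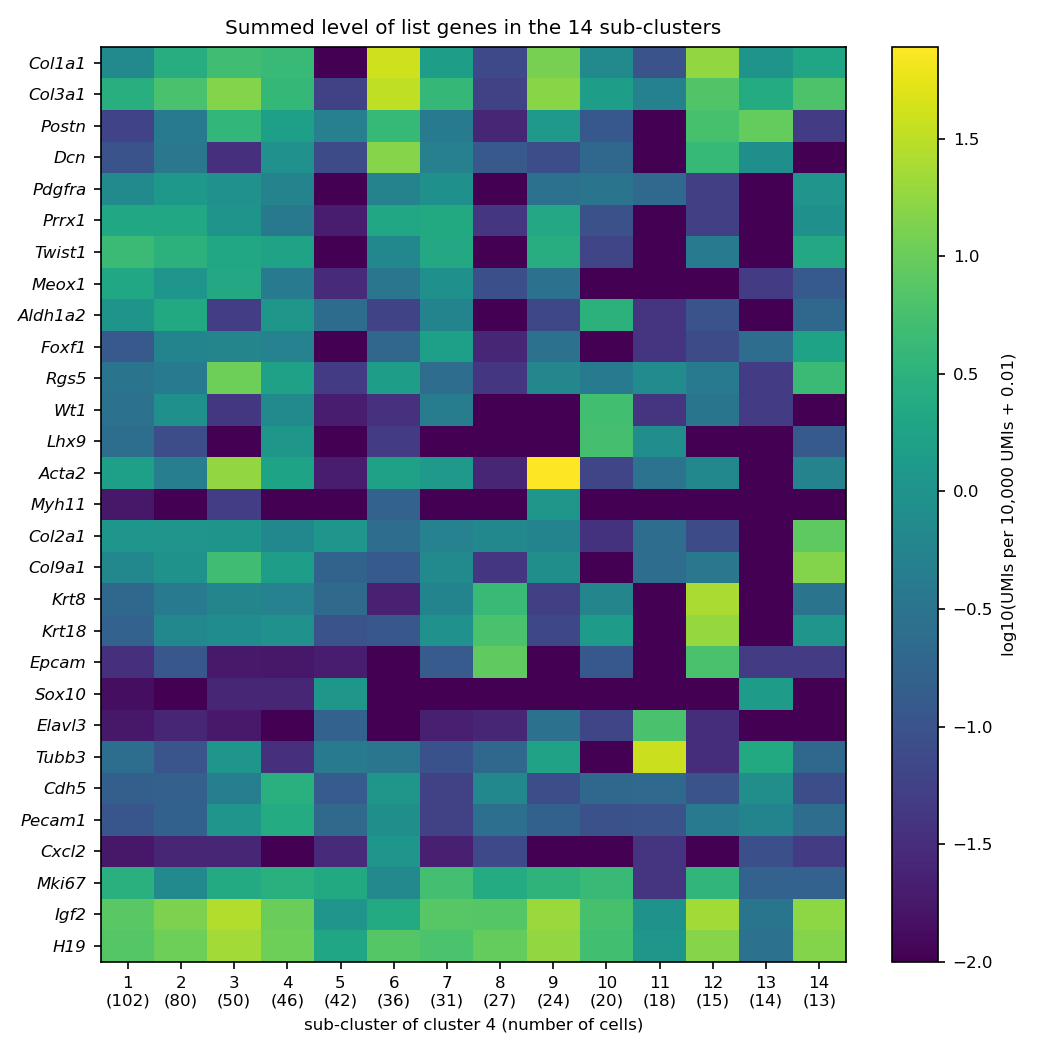
Summed level of list genes (lines) in the 14 sub-clusters (columns, with their number of cells), as log10 of UMIs per 10,000 UMIs plus 0.01. *Col1a1* is brightest in sub-cluster 6 (40.2 UMIs per 10,000), *Acta2* in sub-cluster 9 (77.6), *Krt8* in sub-cluster 12 (24.8) and *Tubb3* in sub-cluster 11 (37.6).

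By Spearman correlation of summed profiles over 9438 genes, a description, the clusters most like cluster 4 were cluster 2 (0.815) and cluster 0 (0.802), and the least like it was cluster 1 (0.660). Against cluster 2, 1126 of 9234 genes were called higher (12.2%) and 496 lower (5.37%), and against cluster 0, 879 of 9469 were higher (9.28%) and 766 lower (8.09%). *Col1a1* was among the leading genes in both, at log2 ratios of 8.37 and 9.19. Against cluster 2 it was joined by *Krt8* (8.41), *Acta2* (8.13), *Col9a1* (7.83) and *Actc1* (7.60), and against cluster 0 by *Foxd1* (9.45, interval 7.60 to 12.50, since cluster 0 held 2 UMIs of it), *Postn* (8.80), *Nefm* (8.01) and *Sox9* (7.78). The genes lowest against cluster 2 were *Aplnr*, *Clec1b*, *Tmem255a*, *Emcn* and *Lmo2* (-4.35 to -3.75). Those lowest against cluster 0 were *Gja5*, *Vwf*, *Gja4*, *Hbb-y* and *Tmem100* (-6.27 to -5.38), of which *Gja5* and *Gja4* encode connexins of arterial endothelium. All 14 endothelial genes were lower in cluster 4 than in either cluster.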

How the data were processed

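Per the labels and the study's methods, libraries were made with 10x Genomics 3′ v3 chemistry and processed with Cell Ranger 3.1.0 on mm10, with aggregation of libraries and batch-effect removal, and the submitters' processing notes also name Seurat 3.1.5. The authors deposited UMI counts per gene and cell (unnormalized), and the Leiden cluster number and UMAP coordinates of each cell, a score with no unit. A deposited normalized table was not used. The methods state a minimum of 5000 UMIs and singlets only. The deposited table held the stated 9562 cells, of which 90 were below that minimum, 6 of them in cluster 4.

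The members and gene lists were chosen with earlier results of these data known. Names and positions came from GENCODE M21. Of 27998 identifiers 27645 had a name, and equal names were summed. Some genes are not reported here. Levels are sums of UMIs per 10,000 UMIs. Calls needed a 2-fold ratio over all cells and in each library, among genes with at least 0.1 UMI per 10,000 in either group, and where a group held no UMI of a gene, 3 UMIs stood in for it. Intervals (exact Poisson for levels, exact conditional binomial for ratios, Clopper-Pearson for shares) are at 95% and cover counting error only. Replicate animals or cultures cannot be told apart, so no p-values are given. Genes were named if they were 1 of the 6 markers, were in a list, were among the 15 largest ratios in each direction (5 for the nearest clusters) at 1 UMI per 10,000 or more, or were among the 10 leading genes of a sub-cluster. *Mgp*, *Spp1*, *Acta2* and *Dcn* were singled out for the counts of cells that hold their UMIs after their values were seen. Sub-clusters used 2000 overdispersed genes, 30 components, 10 neighbours and a Leiden resolution of 0.5. A list of a cell type, but not one of a pathway, process or factor family such as the cell cycle, named a sub-cluster if at least 3 of its members were among the 50 genes with the largest ratio. Sub-cluster 10 met this rule but was left without a name. Scrublet called 8 of the 9562 cells (0.0837%) and 0 in cluster 4. A caller that marks so few has not worked, unless doublets were removed before deposit as the methods imply, so no cell was removed. Cells were thinned to 5,000 UMIs with a fixed seed. The tools were scanpy 1.11.5, scipy 1.17.1 and pandas 2.3.3 in Python 3.11.15.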

Additional observations from a re-analysis of the deposited data

How the results depend on the processing

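No test was run, paired by library or not. The pools of the labels cannot be matched to the library suffixes. Ratios were taken within each library, and each call needed all 3. Of 275 values recomputed under the alternatives, 239 stayed within the limits set for them and 36 moved. These values are counts and shares, so changes of direction were not looked for. The 1038 genes higher and 619 lower became 127 and 114 with a minimum of 1 UMI per 10,000, and 586 and 278 with a 4-fold threshold, since fewer genes can pass. They became 4901 and 976 with no minimum. There, 3 UMIs stood in for none, and cluster 4 held 11837717 UMIs against 240501325 in the other cells. A gene without a UMI in cluster 4 and with few elsewhere could hence be called higher, so the 4901 may include such genes. With the 6 other clusters weighted equally, lower genes numbered 3 in the collagen list, 10 in the germ list, 6 in the NOTCH list and 8 in the inflammation list, and higher genes 3 in the fetal RNA-binding list, 0 in the hypoxia list and 0 in the stress list. The cause was not tested. Leaving out a library moved lower genes to 2 in the collagen list, 2 in the trophoblast list and 0 in the hypoxia list, and higher genes to 2 in the stress list, in each case without library 1, and gave 9 to 11 sub-clusters in place of 14 (9 without library 1). Other settings of the clustering gave 10 to 18. Leaving out sub-cluster 6 (or 4) was an alternative chosen after seeing the data. Without sub-cluster 6 there were 9 higher fibroblast and stromal genes of 11 tested, 2 lower collagen genes, 3 higher filament and adhesion genes, 6 lower inflammation genes and 0 higher stress genes, and 961 of the 1038 higher and 613 of the 619 lower genes kept their call. Marker shares changed with depth and threshold. Above 0 in place of 0.5 UMIs per 10,000, the shares were 62.7% for *Col1a1*, 68.1% for *Col1a2*, 31.1% for *Postn*, 49.0% for *Pdgfra* and 26.1% for *Krt8*, and at 5,000 UMIs they were 43.6%, 45.5%, 18%, 23.6% and 14.8%, with 61.3% for *Col3a1*. Y-linked RNA was found in 40.7% of cells at 2 UMIs or more and in 31.1% at 5,000 UMIs. *Krt8* and *Col1a1* were together in 11.4% of cells above 0.5 UMIs per 10,000 without thinning.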

Other observations

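Sub-clusters differed in how often the same cells came together under other settings of the clustering. The smallest share of cells in common with the best match (Jaccard index) was 1.0 for the smooth muscle-like sub-cluster 9 and 0.72 for the collagen-rich sub-cluster 6, and 0.58 for the endothelial-like sub-cluster 4 and the epithelial-like sub-cluster 8. It was 0.35, 0.37, 0.44 and 0.43 for sub-clusters 1, 2, 3 and 5, 0.14 for sub-cluster 7, 0.24 for sub-cluster 10, 0.26 for the neuron-like sub-cluster 11, 0.23 for the epithelial-like sub-cluster 12, 0.28 for the neural crest and glia-like sub-cluster 13 and 0.12 for the cartilage-like sub-cluster 14. The median over the settings was 0.5 for sub-cluster 1, the largest, 1.0 for sub-clusters 11 and 13 and 0.94 for sub-cluster 12, but 0.21 for sub-cluster 7, 0.34 for sub-cluster 10 and 0.30 for sub-cluster 14. Sub-cluster 3 was mostly *Xist*-positive, with *Xist* in 38 and Y-linked RNA in 13 of its 50 cells, and sub-cluster 12 had *Xist* in 12 and Y-linked RNA in 2 of its 15 cells. The summed level of the trunk *Hox* list was 0.17 in sub-cluster 3 and 29.7 in the neuron-like sub-cluster 11.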
